A study of Mus musculus with 6 samples.

Results

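The ETS factors of blood and vessel were taken here as 9 genes, Erg, Fli1, Ets1, Ets2, Etv2, Etv6, Elk3, Elf1 and Gabpa, out of 55487 genes in the count table. They were found by gene symbol, each matched 1 row, and all 9 passed the filter on low counts. Poly(A) RNA was sequenced from 6 libraries of cells grown out of mouse embryonic stem cells, 3 from lines made from Ts1Cje mice and 3 from lines made from wild-type mice. Both were sampled after 4 days of induction toward primitive macrophage progenitors, with the growth factors VEGF, FGF2, activin A and BMP-4, and the study set out to learn why Ts1Cje embryos have fewer microglia. In Ts1Cje, a mouse model of Down syndrome, distal chromosome 16 is present in an additional copy, and the strain is also known to have a small deletion on another chromosome. Erg and Ets2 lie in the triplicated part and the other members do not. The labels number the libraries as lots without saying whether each was its own culture or line, so the spread behind the p-values may be technical. Genotype and cell line of origin cannot be told apart.

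ETS proteins share a winged-helix DNA-binding domain that reads a core of GGAA. In the embryo, Etv2 is switched on briefly in mesoderm and is required for both blood and endothelium, and Fli1, Erg, Ets1 and other family members are known to act after it with Tal1, Lmo2 and Gata2. Erg and Fli1 are close paralogs, as are Ets1 and Ets2, and in the mouse genome the genes lie as 2 pairs: Erg beside Ets2 and Fli1 beside Ets1. Elk3 works with serum response factor, Etv6 is a repressor, Elf1 is a factor of blood and endothelial cells, and Gabpa is a widely expressed activator that works with GABPB subunits.

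The triplicated neighbours Erg and Ets2 went in opposite directions, and Etv2 is known to act before Fli1, Erg and Ets1 in blood and endothelium. The promoters of Erg, Ets2 and Etv2 are therefore shown. Each runs from 250 bases before to 50 bases after a RefSeq start (GRCm38.p6, the assembly of mm10), 5′ to 3′ on the gene's strand, with GGAA or its complement TTCC in capitals. They cover chr16:95586544-95586843 on the minus strand for Erg (the first of 3 listed starts), chr16:95702157-95702456 on the plus strand for Ets2 and chr7:30635803-30636102 on the minus strand for Etv2.
Erg: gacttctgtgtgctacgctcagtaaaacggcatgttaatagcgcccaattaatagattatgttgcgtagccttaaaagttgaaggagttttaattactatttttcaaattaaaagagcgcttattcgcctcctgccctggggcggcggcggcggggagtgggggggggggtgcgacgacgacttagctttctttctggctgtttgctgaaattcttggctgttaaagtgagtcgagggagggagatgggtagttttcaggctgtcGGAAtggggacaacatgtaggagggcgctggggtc
Ets2: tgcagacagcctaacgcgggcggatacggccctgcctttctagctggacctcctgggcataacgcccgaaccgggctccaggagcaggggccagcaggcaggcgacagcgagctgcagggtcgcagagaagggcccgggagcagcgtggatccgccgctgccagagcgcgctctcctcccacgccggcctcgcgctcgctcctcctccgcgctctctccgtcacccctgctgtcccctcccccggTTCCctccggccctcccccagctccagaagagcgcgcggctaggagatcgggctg
Etv2: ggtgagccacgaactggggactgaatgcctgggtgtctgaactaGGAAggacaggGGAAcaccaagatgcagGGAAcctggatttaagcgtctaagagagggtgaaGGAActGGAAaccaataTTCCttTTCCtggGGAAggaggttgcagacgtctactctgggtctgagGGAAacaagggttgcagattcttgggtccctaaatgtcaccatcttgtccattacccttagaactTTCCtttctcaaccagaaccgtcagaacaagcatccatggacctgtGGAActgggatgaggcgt

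RefSeq promoters were matched for 7 of the 9 members, 10 starts in all. GGAA on either strand was found in 10 of these 10 windows and in 96.0% of all 32851 RefSeq mouse promoters of this length, so its presence sets no member apart. The Etv2 window held 11 matches, against a median of 3 (quartiles 2 and 5) over all promoters, and only 83 promoters (0.253%) held as many or more. Etv6 had 6 matches, Gabpa 5, the Erg starts 1, 4 and 2, Elk3 2, the Elf1 starts 2 and 1, and Ets2 1. The longer form CCGGAAG, which contains the core, was found in the Gabpa window alone (8.86% of all promoters), and the GATA motif AGATAA in the Erg window of the third start alone (11.2%). The cyclic AMP response element TGACGTCA was found in 0 of the 10 windows (1.79% of all promoters). These are matches of letters and not measured binding.

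Most of the 9 factors were lower in Ts1Cje. With edgeR's quasi-likelihood test, adjusted by Benjamini-Hochberg over all 17315 genes tested, 6 members fell (Erg, Fli1, Ets1, Etv2, Etv6 and Elk3), 2 rose (Elf1 and Ets2) and 1 did not pass (Gabpa). Calls were common in this comparison: 43.8% of all tested genes passed, 23.3% higher and 20.5% lower, and the libraries of the genotypes did not overlap for 55.2%. They did not overlap for 8 of the 9 members. The median log2 fold change (Ts1Cje over wild-type) was −1.72 over the members and −0.01 over all tested genes. In bulk RNA, fewer cells of a type and less RNA per cell cannot be told apart.

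Total counts ran from 16577065 to 19010856 per library. Markers of several cell types moved with genotype, and their part in the ETS results was not tested. Summed TPM (transcript abundance scaled for gene length and library size) of 7 endothelial markers was 171.4 to 213.2 in wild-type and 22.7 to 47.7 in Ts1Cje, and that of 8 mesoderm markers was 2058 to 2175 against 342.8 to 561.4. Kdr, the VEGF receptor gene that is also in the list of genes upstream of Etv2, carried most of the endothelial sum (153.0, 154.6 and 163.8 TPM against 23.4, 39.2 and 13.2), and without it the sums were 18.4, 42.9 and 49.4 against 9.14, 8.44 and 9.5 TPM. Pluripotency markers summed to 241.7, 79.8 and 62.2 in wild-type lots 1 to 3, lot 1 being the highest, against 570.2 to 879.9 and endoderm markers to 79.4 to 96.8 against 539.6 to 789.7. Fibroblast and feeder markers summed to 12.7, 31.7 and 36.6 in wild-type lots 1 to 3 against 5.82 to 7.05 in Ts1Cje. Of the 4 tested 3 fell. Wild-type lot 1 was the lowest of its group for this sum and for Erg, Fli1, Ets1 and Elk3. It was the highest for Etv2, Etv6, Elf1 and Gabpa, and for Ets2 it lay between the others. Neuroectoderm markers summed to 33.7 to 66.4 against 147.8 to 166.7. Blood progenitor markers summed to 87.0 to 126.5 against 76.2 to 84.9. Of the 7 tested among them 3 rose and 3 fell, with a median log2 fold change of −0.09. Tal1, Gata2 and Runx1 of this list are also among the early blood partners described below. The mesoderm marker Mesp1 is also in the list of genes upstream of Etv2, so these counts share genes. Erythroid markers summed to 1.14 to 2.52 against 3.95 to 7.76, and 1 of the 2 tested rose. The macrophage list of 10 genes summed to 18.7 to 30.1 against 30.2 to 38.2 TPM. Of these genes 7 did not pass the filter on low counts, and of the 3 tested 1 rose. Cx3cr1 of that list had 0 counts in all libraries. Ptprc, the pan-leukocyte CD45 gene in the blood progenitor list, and the endothelial marker Emcn also had 0. Spi1, the ETS gene for the macrophage factor PU.1, had 9 counts over the wild-type and 11 over the Ts1Cje libraries and was not tested. On the first principal component (79.1% of the variance) wild-type lot 1 scored −50.0 and the other wild-type lots −72.4 and −73.0, so lot 1 was the one nearest to Ts1Cje. Without it the call of Ets2 was lost and those of the other members held, with log2 fold changes of −4.02 for Erg, −4.64 for Fli1, −1.81 for Ets1, −2.53 for Elk3 and −2.29 for Etv2.

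Etv2, which specifies the common ground of blood and vessel (chromosome 7, 30633616 to 30635852, minus strand), was the most abundant of the 9 in wild-type. It measured 179.9, 125.7 and 102.4 TPM in wild-type lots 1 to 3 and 28.2, 33.1 and 10.3 TPM in Ts1Cje lots 1 to 3. All Ts1Cje libraries were below all wild-type libraries, with Ts1Cje lot 3 the lowest and wild-type lot 1 the highest. In counts scaled for depth the fall was 5.74-fold (log2 fold change −2.52 ± 0.44 SE, 95% interval −3.60 to −1.44, adjusted p = 0.00539 by edgeR). The gene has 1 annotated transcript and an exon length of 1048 bases, and no annotated gene overlaps it.

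Fli1, an activator kept on in endothelium and early blood (chromosome 9, 32422204 to 32542861, minus strand), had the largest fall. Its counts were 231, 414 and 338 in wild-type and 10, 19 and 15 in Ts1Cje, or 11.8, 20.7 and 16.7 TPM against 0.502, 1.06 and 0.728 TPM. The groups stood far apart, and wild-type lot 1 was the lowest of its group. The fall was 21.7-fold (log2 fold change −4.44 ± 0.31 SE, interval −5.13 to −3.74, adjusted p = 5.99e-06 by edgeR). On the log2(TPM + 1) scale, which understates changes of low genes, the difference was −3.28.

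Erg, a factor of endothelial identity and of blood stem cells (chromosome 16, 95359169 to 95586593, minus strand), fell although its gene is triplicated. It had 68, 136 and 154 counts in wild-type and 8, 10 and 8 in Ts1Cje, or 3.49, 6.84 and 7.64 TPM against 0.404, 0.563 and 0.390 TPM. Every Ts1Cje library was below every wild-type library, and wild-type lot 1 was again the lowest of its group. The fall was 13.3-fold (log2 fold change −3.73 ± 0.39 SE, interval −4.61 to −2.86, adjusted p = 5.63e-05 by edgeR). The difference was −2.21 on the log2(TPM + 1) scale. With so few counts in Ts1Cje the differences among its 3 libraries were not detectable at this depth.

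Ets1, an activator of lymphoid and endothelial genes (chromosome 9, 32636221 to 32757820, plus strand), read 26.1, 28.8 and 33.3 TPM in wild-type and 9.12, 9.57 and 8.32 TPM in Ts1Cje. The groups did not overlap, and the Ts1Cje libraries lay close together. The fall was 3.29-fold (log2 fold change −1.72 ± 0.12 SE, interval −1.98 to −1.46, adjusted p = 4.60e-06 by edgeR).

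Ets2, a growth factor responsive paralog of Ets1 (chromosome 16, 95702075 to 95721051, plus strand), read 34.9, 34.7 and 35.8 TPM in wild-type and 37.0, 43.7 and 49.0 TPM in Ts1Cje. The groups did not overlap, but Ts1Cje lot 1 was only just above the highest wild-type library. The rise was 1.22-fold (95% interval 1.05 to 1.42, log2 fold change 0.29 ± 0.10 SE, adjusted p = 0.0369 by edgeR). The call was lost in 9 of 15 alternatives, among them each fit without wild-type lot 1, 2 or 3 (adjusted p = 0.0654, 0.113 and 0.0609) or without Ts1Cje lot 2 or 3 (0.0804 and 0.156).

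Elk3, a partner of serum response factor that represses until ERK signalling reaches it (chromosome 10, 93247414 to 93311135, minus strand), read 16.5, 23.9 and 25.0 TPM in wild-type and 4.23, 4.84 and 3.90 TPM in Ts1Cje. The groups were apart, with wild-type lot 1 the lowest wild-type library. It fell 5.08-fold (log2 fold change −2.35 ± 0.19 SE, interval −2.77 to −1.93, adjusted p = 1.14e-05 by edgeR). Of its exon length, 6.95% is shared with Cdk17 on the opposite strand, which changed by −0.23 ± 0.09 and did not pass (adjusted p = 0.0783).

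Etv6, a repressor needed for blood stem cells and yolk sac vessels (chromosome 6, 134035700 to 134270158, plus strand), read 48.0, 44.2 and 41.7 TPM in wild-type and 37.9, 36.3 and 31.8 TPM in Ts1Cje. The groups did not overlap, though the gap between them was small. It fell 1.27-fold (log2 fold change −0.34 ± 0.08 SE, interval −0.53 to −0.15, adjusted p = 0.0081 by edgeR). An annotated gene, Gm17089, shares 2.26% of its exon length.

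Elf1, a factor of the Elf branch that is active in blood and endothelium (chromosome 14, 79481194 to 79582494, plus strand), was the clear exception. It read 9.68, 7.86 and 8.14 TPM in wild-type and 17.5, 18.8 and 20.0 TPM in Ts1Cje. All Ts1Cje libraries were well above all wild-type libraries. The rise was 2.18-fold (log2 fold change 1.13 ± 0.11 SE, interval 0.89 to 1.37, adjusted p = 3.21e-05 by edgeR). Wbp4 shares 4.85% of its exon length.

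Gabpa, the DNA-binding subunit of the GABP activator of mitochondrial and housekeeping genes (chromosome 16, 84834925 to 84863779, plus strand), lies on chromosome 16 before the triplicated part. It read 70.4, 63.9 and 60.6 TPM in wild-type and 62.2, 56.1 and 54.1 TPM in Ts1Cje. It was the one member whose groups overlapped, since Ts1Cje lot 1 was above wild-type lot 3. The log2 fold change of −0.18 ± 0.08 (interval −0.36 to −0.01) did not pass (adjusted p = 0.0838 by edgeR), but it passed without Ts1Cje lot 1 (adjusted p = 0.0280). Atp5j shares 6.98% of its exon length.

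**Figure D1:**
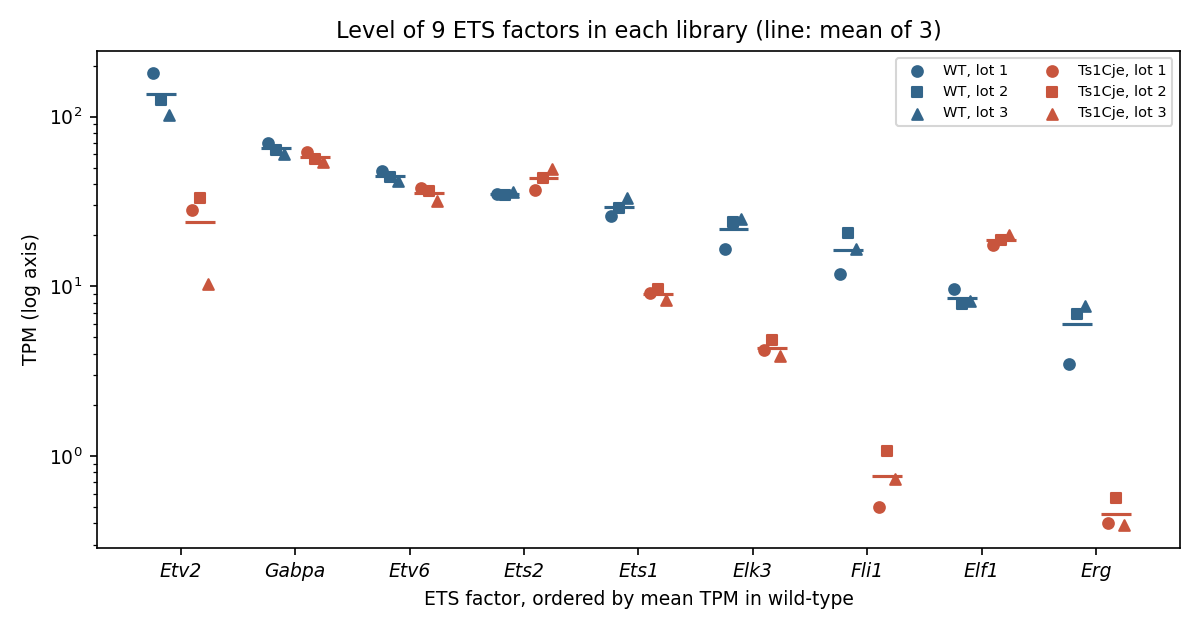
TPM of the 9 ETS factors in each of the 3 wild-type and 3 Ts1Cje libraries (points, log axis), with the mean of each group as a line. Erg and Fli1 dropped from 3.49 to 20.7 TPM in wild-type to 0.390 to 1.06 TPM in Ts1Cje, while Ets2 and Elf1 were above their wild-type libraries.

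**Figure D2:**
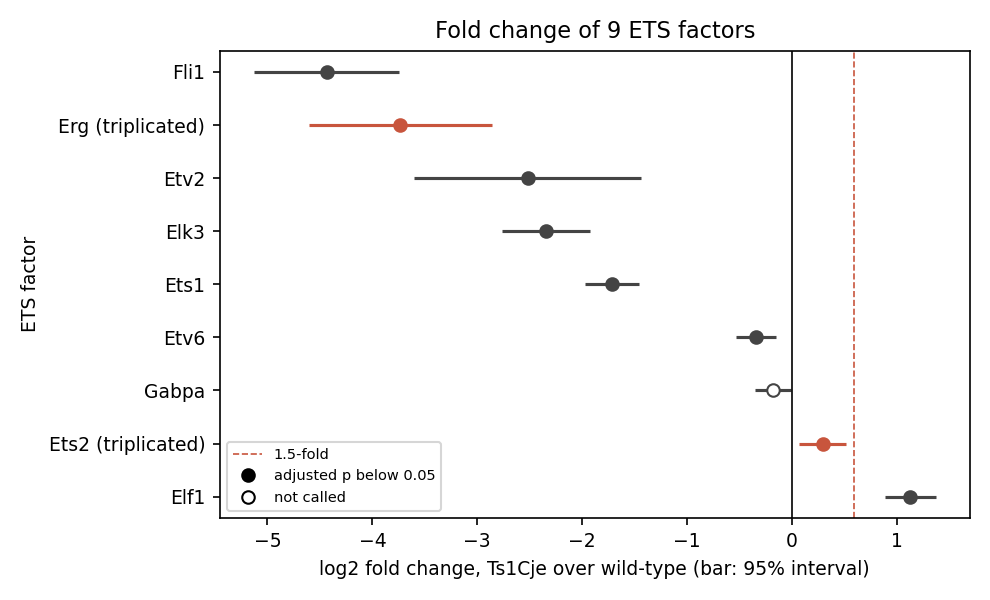
Log2 fold change (Ts1Cje over wild-type) of each ETS factor with its 95% interval from edgeR's quasi-likelihood fit. The values run from −4.44 for Fli1 to 1.13 for Elf1.

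The order of the factors by level changed with genotype. TPM is scaled by gene length, and the lengths implied by the deposited TPM lay within 1% of the GENCODE exon length for 98.4% of 13561 genes checked. In wild-type the order of mean TPM was Etv2 (136 ± 39.8 SD, n = 3), Gabpa (64.9 ± 4.98), Etv6 (44.6 ± 3.14), Ets2 (35.1 ± 0.574), Ets1 (29.4 ± 3.63), Elk3 (21.8 ± 4.63), Fli1 (16.4 ± 4.47), Elf1 (8.56 ± 0.978) and Erg (5.99 ± 2.20). Among neighbours in that order, only the libraries of Elk3 and Fli1 overlapped. In Ts1Cje it was Gabpa (57.5 ± 4.22), Ets2 (43.2 ± 5.98), Etv6 (35.3 ± 3.14), Etv2 (23.9 ± 12.0), Elf1 (18.8 ± 1.28), Ets1 (9.0 ± 0.634), Elk3 (4.33 ± 0.478), Fli1 (0.764 ± 0.282) and Erg (0.452 ± 0.096). There the libraries of Ets2 and Etv6, Etv6 and Etv2, Etv2 and Elf1, and Fli1 and Erg overlapped, so those neighbours could not be ordered beyond their spread. Etv2 moved from rank 1 to rank 4 and Elf1 from rank 8 to rank 5.

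Summed over the 9 factors, TPM was 400.6, 356.6 and 331.2 in wild-type and 197.0, 204.1 and 178.6 in Ts1Cje. Much of that gap was Etv2: without it the sums were 220.7, 230.9 and 228.8 against 168.8, 170.9 and 168.2. The 9 made up 46.2% to 49.0% of the TPM of 26 listed ETS genes in wild-type and 30.9% to 31.7% in Ts1Cje. Etv2 alone took 14.3% to 22.0% of ETS TPM in wild-type and 1.83% to 5.01% in Ts1Cje. The share of Elf3, an epithelial ETS gene, was 1.20% to 1.71% against 9.32% to 11.9%.

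**Figure D3:**
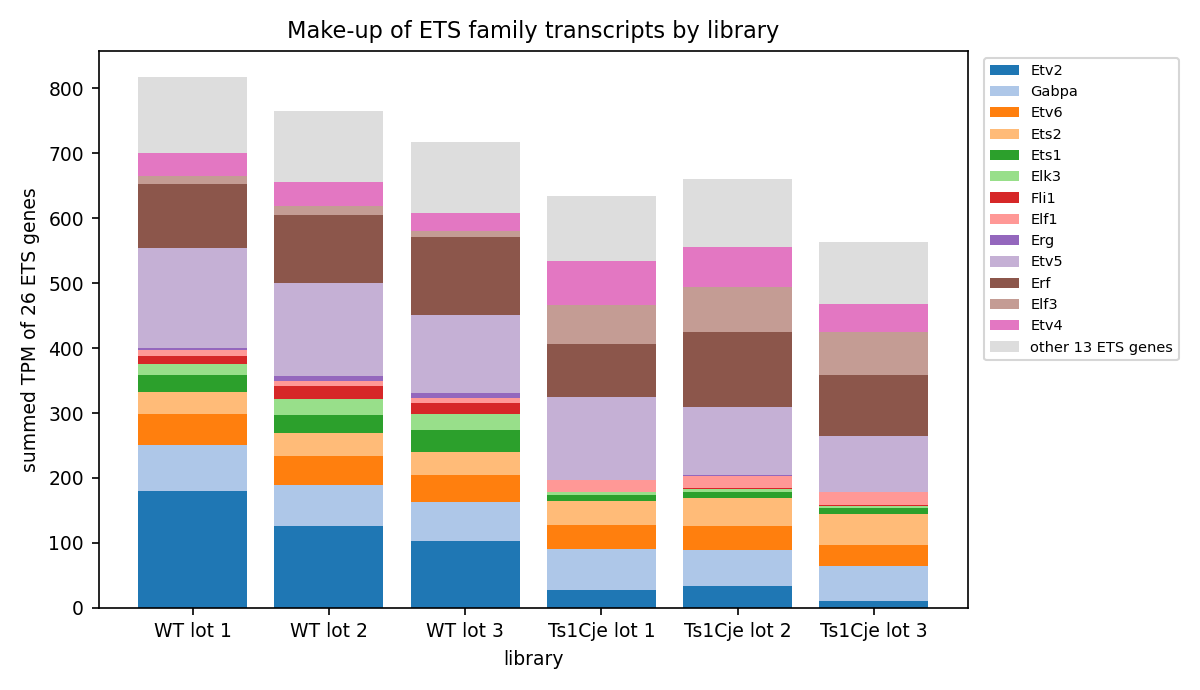
TPM of the ETS family in each library, stacked by gene, with genes outside the 9 grouped or named as in the legend. The 26 genes together summed to 717.5 to 817.2 TPM in wild-type and 563.7 to 661.1 TPM in Ts1Cje.

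The triplicated pair was compared with the value that the extra copy alone would give, a 1.5-fold rise (log2 of 0.58). In the segment (mm10, chromosome 16, 90225680 to 97962622) 76 of 185 genes were tested, with a median log2 fold change of 0.48. Against 1.5-fold, 38 of the 76 (50.0%) deviated, 18 above and 20 below, with adjustment over the segment. Erg had the lowest log2 fold change of the 76, and it deviated from the dosage value by −4.31 ± 0.39 log2 units (interval −5.19 to −3.44, adjusted p = 1.13e-05 by edgeR). Ets2 ranked 23 from the lowest and deviated by −0.29 ± 0.10 (interval −0.52 to −0.07, adjusted p = 0.0328 by edgeR). That deviation no longer passed without wild-type lot 2 or 3 (adjusted p = 0.0799 and 0.0924) or Ts1Cje lot 1 or 2 (0.1035 and 0.0855). The interval of Ets2, 1.05 to 1.42-fold, lay below 1.5-fold and above no change. In log2 that interval, 0.07 to 0.51, included the segment median of 0.48. Ets2 could thus not be told apart from the middle of the segment.

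Both pairs are arranged head to head, the minus-strand gene Erg or Fli1 on one side and the plus-strand gene Ets2 or Ets1 on the other. The gap is 115.481 kb between Erg and Ets2 and 93.359 kb between Fli1 and Ets1. Ratios within a library need no scaling between libraries, so they were taken as log2 of the counts plus 0.5. The Erg to Ets2 ratio was −4.05, −3.08 and −2.96 in wild-type and −7.17, −6.95 and −7.62 in Ts1Cje, a 14.7-fold lower ratio. The Fli1 to Ets1 ratio was −2.43, −1.76 and −2.28 in wild-type and −5.40, −4.42 and −4.75 in Ts1Cje, a 6.50-fold lower ratio. In both pairs the ratios of the groups did not overlap. Erg fell beside a neighbour that was higher, and Fli1 fell further than Ets1. Each comparison gave an exact permutation p = 0.1 (2-sided), the smallest that 3 against 3 libraries allow.

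Other genes around the pairs, taken as the nearest 3 tested on each side within 500 kb, went in both directions. Beside Erg, the potassium channel genes Kcnj15 (−2.15 ± 0.68, adjusted p = 0.033) and Kcnj6 (−1.88 ± 0.47, adjusted p = 0.009) fell too. Their counts were low, 152 over the wild-type and 33 over the Ts1Cje libraries for Kcnj15 and 95 and 25 for Kcnj6. Kcnj15 varied widely in wild-type (2.75 ± 2.41 CPM, SD, against 0.62 ± 0.22 in Ts1Cje). Beyond Ets2, Psmg1, a proteasome assembly gene (0.38 ± 0.08), and Brwd1, a chromatin reader gene (0.42 ± 0.07), rose, and Gm15342 did not pass (0.58 ± 0.25, adjusted p = 0.085). All of these, with Kcnj15 and Kcnj6, lie in the triplicated segment. Against 1.5-fold, Kcnj15 deviated by −2.73 ± 0.68 log2 units, Kcnj6 by −2.46 ± 0.47 and Psmg1 by −0.21 ± 0.08. Brwd1 (−0.16 ± 0.07) and Gm15342 (−0.01 ± 0.25) did not pass there (adjusted p = 0.0965 and 0.984 by edgeR over the segment). Beside Fli1, Arhgap32 fell (−0.42 ± 0.09), and Kcnj5 (0.90 ± 0.35, adjusted p = 0.062) and Gm3756 (−0.39 ± 0.15, adjusted p = 0.061) did not pass by edgeR. No gene within 500 kb beyond Ets1 was tested.

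**Figure D4:**
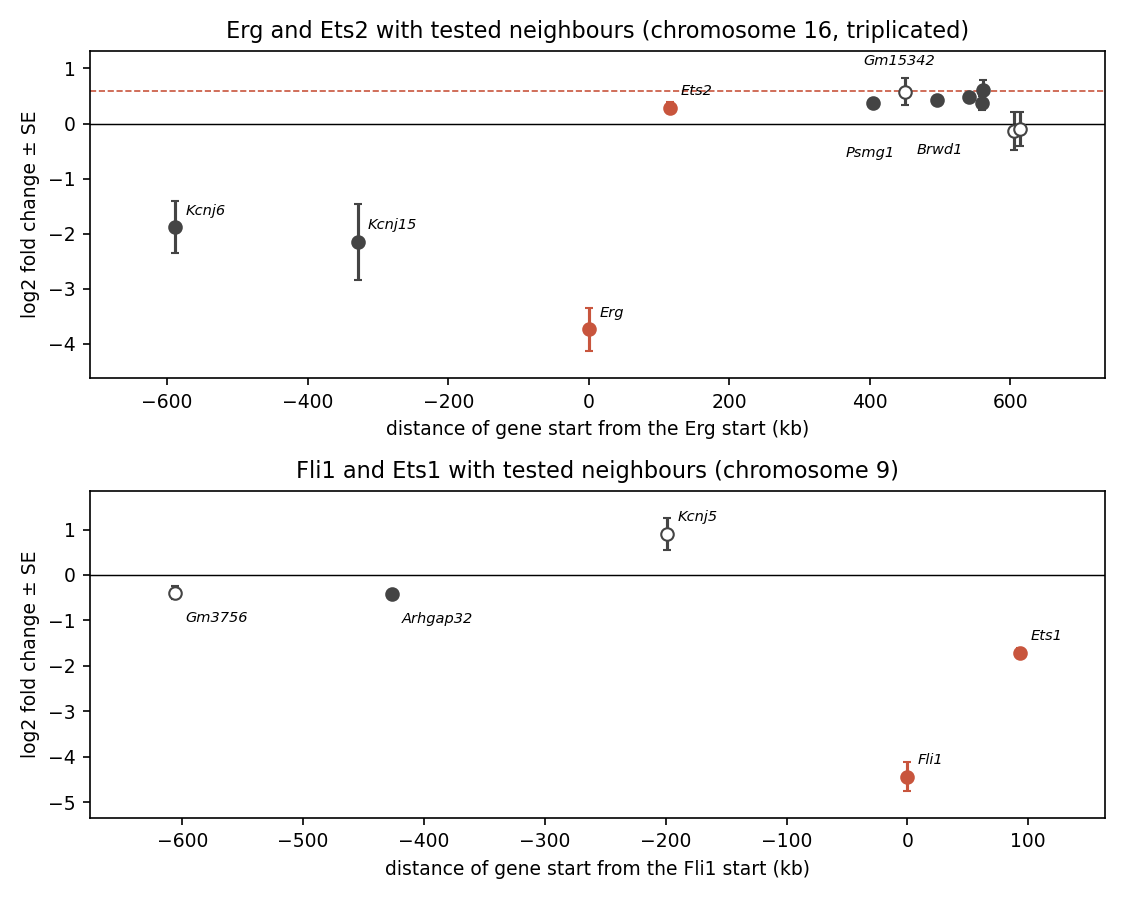
Log2 fold change ± SE of tested genes around Erg and Ets2 (top) and Fli1 and Ets1 (bottom), by distance of the gene start from the start of Erg or Fli1 in kb. Red points are the ETS factors, filled points passed an adjusted p of 0.05, and the dashed line marks 1.5-fold. Erg at −3.73 stood beside Ets2 at 0.29, and Fli1 at −4.44 beside Ets1 at −1.72.

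Each factor's profile over the 6 libraries was centred on its mean log2 CPM and set against those of all other tested genes, by the root mean square difference. This describes 6 libraries of which 3 share a genotype, so any gene with a like fold change scores well. Closest to Erg were Dok4 (0.11), Tbx20, a cardiac transcription factor (0.12), and Crb2 (0.15). Closest to Fli1 were Sdk2 (0.23), Col26a1 (0.23) and Hapln1 (0.24), and closest to Etv2 were Cdh11 (0.23), Slc24a4 (0.24) and Lix1 (0.24). Among the factors themselves, Etv6 and Gabpa were closest (0.09), followed by Ets2 and Gabpa (0.30) and by Ets1 and Elk3 (0.32). Erg and Fli1 differed by 0.50.

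The rest of the ETS family went in both directions. Of 17 other ETS genes 14 were tested, 5 rose, 3 fell and 6 did not pass, with a median of −0.15. Over all tested genes 23.3% were called higher and 20.5% lower, so the share of falls was close to that of all genes. The share of rises was larger than that of all genes, on only 14 genes, and this difference was not tested. Among the 8 of highest mean TPM, Elf3 rose from 7.98 ± 1.65 to 44.8 ± 3.29 CPM (SD, n = 3 each; log2 fold change 2.49 ± 0.15), and Etv4, an FGF-responsive factor, rose by 0.77 ± 0.18. Elf2 (−0.24 ± 0.06) and Elk1 (−0.28 ± 0.09) fell, and Etv5, Erf, Etv3 and Elk4 did not pass. The genes left among those called are named here after their values were seen: Elf4 (1.52 ± 0.13), Spdef (2.05 ± 0.33) and Ehf (4 counts over the wild-type and 106 over the Ts1Cje libraries) rose, and Fev, a close relative of Erg and Fli1, fell (−3.07 ± 0.42). Without Ts1Cje lot 3 only 1 of the others was called lower instead of 3.

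**Figure D5:**
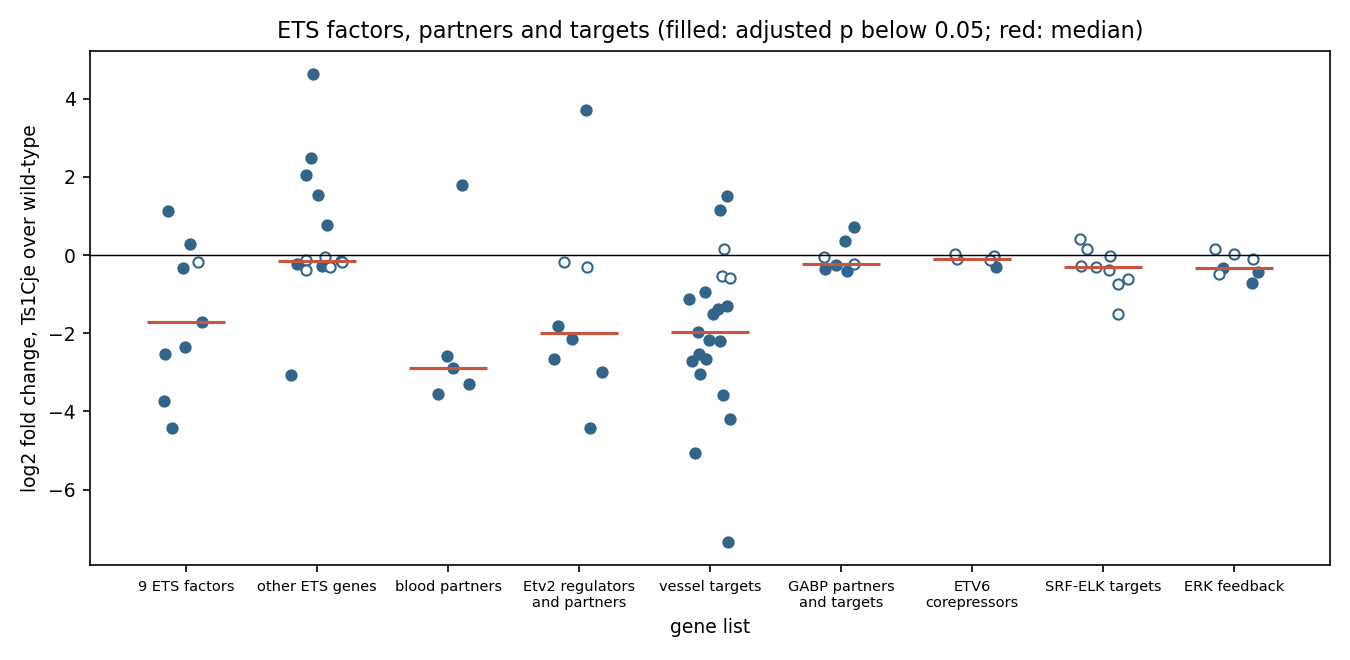
Log2 fold change (Ts1Cje over wild-type) of the tested genes in each list (points; filled where the adjusted p was below 0.05), with the median as a red line. Icam2, with 0 counts in Ts1Cje, is drawn at its lower bound. The blood partners had a median of −2.90, the vessel targets −1.97 and the 9 factors −1.72.

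The genes that work with these factors in early blood were mostly lower as well. Of all tested genes, 20.5% were called lower and 23.3% higher. Of 5 partners, 4 fell and 1 rose, with a median of −2.90: Tal1, the basic helix-loop-helix factor of blood and endothelial specification (−3.56 ± 0.39), its relative Lyl1 (−3.30 ± 0.57) and the adaptor Lmo2 (−2.90 ± 0.29) were the largest falls. Tal1 read 51.2, 61.4 and 66.2 TPM in wild-type and 4.23, 8.51 and 2.74 TPM in Ts1Cje, with no overlap. Runx1, which lies in the triplicated segment and was named after its value was seen, was the one that rose (1.80 ± 0.29, adjusted p = 0.0019 by edgeR). It lay above 1.5-fold by 1.21 ± 0.29 log2 units (interval 0.53 to 1.89, adjusted p = 0.0141 by edgeR over the segment). Of 8 genes placed upstream of Etv2 or beside it, 5 fell, 1 rose and 2 did not pass, with a median of −1.98. The mesoderm signal Bmp4 fell most (−4.43 ± 0.37), the cardiac factor Nkx2-5 fell by 2.99 ± 0.48, and Ovol2, a zinc finger factor, rose (3.72 ± 0.34). BMP-4 protein was also a component of the differentiation medium of both genotypes.

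Vessel genes known as ETS targets were mostly lower. Of 23, 21 were tested, 16 fell, 2 rose and 3 did not pass, with a median of −1.97. Among all tested genes 20.5% were called lower and 23.3% higher. Sox18, an endothelial transcription factor, had 388 counts over the wild-type and 2 over the Ts1Cje libraries (ratio 190, 95% interval 52.3 to 1575, exact binomial, counting error only). Icam2, an endothelial adhesion gene, had 56 and 0 counts, at least 18.3-fold lower when the Ts1Cje group is set at 3 counts in all. The receptor Tie1 fell from 8.97 ± 4.93 to 0.263 ± 0.154 CPM (log2 fold change −5.07 ± 0.65). The rises, named after their values were seen, were Flt1, a VEGF receptor (1.51 ± 0.07), and Hhex, a homeobox gene of both endothelium and endoderm (1.15 ± 0.17). In the same libraries 4 of 5 tested endothelial and 4 of 8 tested mesoderm markers fell and 7 of 7 tested endoderm markers rose. The endothelial markers include Cdh5, Pecam1, Tek, Cldn5 and Esam, which are also among the vessel genes, so these counts share genes.

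Called changes among partners and targets of Etv6 and Gabpa lay between −0.40 and 0.71. Among all tested genes 43.8% passed, 23.3% higher and 20.5% lower. Of 5 corepressors of Etv6, 0 rose, 1 fell (Tbl1xr1, −0.31 ± 0.07) and 4 did not pass, with a median of −0.11. The share of falls was close to that of all genes. No rise was called among the corepressors by DESeq2 or limma, and at an unadjusted p under 0.05 edgeR had 0 higher and 2 lower. Of 7 GABP partners and targets, 2 rose, 3 fell and 2 did not pass, with a median of −0.23. The partner Gabpb2 fell (−0.40 ± 0.09), and Cox4i1 (0.71 ± 0.06) and Cox5b (0.36 ± 0.07), subunits of cytochrome c oxidase, rose.

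Targets and feedback genes of the signalling that reaches Elk3, Ets1 and Ets2 were read against the 43.8% of all tested genes that passed. Of 9 immediate early targets of serum response factor and its ELK partners, 0 rose and 0 fell in edgeR's test, with a median of −0.31. At an unadjusted p under 0.05 there were 1 higher and 2 lower, DESeq2 called 0 and limma-voom called 1 lower. With upper-quartile factors edgeR called 1 lower, and without the filter on low counts 2. Without Ts1Cje lot 2 there were 3 lower calls, and without wild-type lot 3 there was 1. Of 7 feedback genes of ERK signalling, which phosphorylates Ets1, Ets2 and Elk3, 0 rose and 3 fell, with a median of −0.32. The falls were Spred1 (−0.71 ± 0.09), Spred2 (−0.43 ± 0.10) and Spry2 (−0.32 ± 0.10), all inhibitors of the pathway. DESeq2 and limma-voom called 4 lower, neither these nor limma on TPM called any higher, and at an unadjusted p under 0.05 edgeR had 0 higher and 4 lower.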

How the data were processed

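Raw counts of reads per gene (Ensembl identifiers) and a matching table of TPM were deposited by the authors for 6 libraries. The submitters' processing notes name FastQC 0.11.7, Trimmomatic 0.38, HISAT2 2.1.0, featureCounts 1.6.3 and mm10; for counting strand, multimapping and other settings, not given in the sources used here, no statement is made, and reads from overlapping or antisense genes cannot be told apart. Libraries were made with poly(A) selection and a directional kit, per the labels' protocols. Of the deposited gene identifiers, 55141 were found in GENCODE M21, 99.4% with identical coordinates.

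Groups and lot numbers came from the labels. Counts were tested in R 4.3.3 with edgeR 4.0.16 (filterByExpr with minimum count 10 and minimum total 15, TMM scaling, robust quasi-likelihood fit without covariates), Benjamini-Hochberg adjustment across the 17315 genes tested and a threshold of 0.05. Single-gene adjusted p-values are from this fit, and fold changes are log2 values of Ts1Cje over wild-type with an SE equal to the absolute change over the square root of F. The 1.5-fold test shifted the Ts1Cje offsets by that factor. Alternatives were other scaling factors and filters, DESeq2 1.42.0, limma 3.58.1 (voom, and trend on log2 TPM plus 1 or 0.1), the lot number as a block and leaving out each library. The procedure was tested on simulated data. Within each group, chi-square over degrees of freedom was 4.81 to 18.4 for pairs of libraries, above sampling noise.

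Members and gene lists were chosen with earlier results of these data known. Named were all members, up to 8 other ETS genes by mean TPM, the 3 largest changes past the threshold in each list (fewer where fewer passed), the 3 nearest tested genes on each side of a pair, and the 3 most alike profiles of Erg, Fli1 and Etv2; exceptions are stated. Promoters came from RefSeq. Intervals from pooled counts cover counting error only.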

Additional observations from a re-analysis of the deposited data

How the results depend on the processing

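Over 15 alternatives, the calls and directions of Erg, Fli1, Ets1, Etv2, Etv6, Elk3 and Elf1 stayed as reported, but the sizes of the low genes moved: on the log2(TPM + 1) scale, which understates changes of low genes, Erg was −2.21 in place of −3.73 and Fli1 −3.28 in place of −4.44. The count of ETS factors called higher was 1 in place of 2, through the loss of Ets2, with upper-quartile factors, with DESeq2 and with both limma fits on TPM, and leaving out 1 library at a time gave 1 to 2. The adjusted p of Ets2 was 0.0522 with upper-quartile factors, 0.0544 with DESeq2 and 0.0630 and 0.0632 with limma on TPM. The deviation of Ets2 from 1.5-fold was −0.40 to −0.20 with 1 library left out. With a pseudocount of 5 the Erg to Ets2 difference was −3.36 in place of −3.88, since Erg had 8 to 10 counts in Ts1Cje. Same-lot libraries of the genotypes deviated together only in part (r = 0.219, 0.0589 and 0.202 across genes), though each sample correlated best with its own number. The labels do not say that the lots are pairs, so the main fit left them unpaired, and the block is given as an alternative. With the replicate block, 8326 genes were called in place of 7579 and 7 factors in place of 6 were lower, as Gabpa passed (adjusted p = 0.0247). The block also gave 4 lower calls and 1 higher among the serum response factor targets and 5 lower among the other ETS genes. Leaving out 1 library gave 6039 to 8042 calls over all genes. Of 240 counts of calls in the 8 lists of other ETS genes, partners and targets, 230 stayed within 1.5 times. Among the other 10 was the Etv6 corepressor list, with 2 lower under upper-quartile factors. Low counts of Erg and Fli1 in Ts1Cje limit the size of their folds, and the small number of lots limits every p.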
